A study of Mus musculus with 8 samples.

Results

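Zbtb16, Vmp1 and Mir21a are 3 mouse genes that overlap a pair of the 3 widest H3K27ac DOWN regions of hepatocytes in primary culture (MPH) under stress of the endoplasmic reticulum (ERS). The widest lies inside Zbtb16, and the third widest covers the end of Vmp1 together with Mir21a, the microRNA gene that sits in the last exon of Vmp1. The members were chosen by the class and width of these DOWN regions, so both are given as a description and nothing is tested on them. All regions within 200 kb of each gene span were then mapped. They number 24 around Zbtb16 and 38 around Vmp1-Mir21a, or 62 of the 32196 regions in the lists. Of the 12261 genes with a transcription start site (TSS) in any region, 3 are members.

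The cells were hepatocytes of adult male wild-type (WT) C57Bl6 mice, kept in serum-free William's medium for all samples. They received either 1 µM thapsigargin, which blocks calcium uptake into the endoplasmic reticulum and thereby causes ERS, or the vehicle alone at 0.04% DMSO, in both cases for 4 h. Each treatment has 3 H3K27ac libraries from separate experiments and 1 input library. The lists analysed here give only the position and class of each region on mm10. Regions are called DOWN, UP or unchanged by the authors from all libraries together. Unchanged means only that the false discovery rate (FDR) was above 0.05, so a change in such a region may have been missed. No region carries a signal, a fold change or a value per library, and the depth is unknown. The size of a loss or gain and its spread between experiments can therefore not be given. Intervals below cover counting error alone, with regions as units. The hepatocyte label was checked on marker genes. TSSs of 8 of 8 hepatocyte markers lay in a region, among them Alb, Ttr and Hnf4a. The counts were 1 of 5 for Kupffer cells (Cd68), 1 of 5 for endothelial cells (Stab2), 0 of 5 for stellate cells, and 2 of 5 for cholangiocytes (Sox9 and Spp1).

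H3K27 acetylation is laid down on nucleosomes around active promoters and enhancers, and very wide stretches of it usually join several neighbouring enhancers. Zbtb16, also called PLZF, is a transcription factor with a BTB domain and a row of zinc fingers, known for its roles in stem cells and innate-like lymphocytes and for its induction by glucocorticoids. Vmp1 is a membrane protein of the endoplasmic reticulum that moves lipids between membrane leaflets and is needed to form autophagosomes. Mir21a encodes miR-21, an abundant microRNA linked to injury, inflammation and cancer. It is known to be transcribed from a promoter of its own within Vmp1 as well as from that of its host gene.

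The 2 mature products of Mir21a are shown because they are what the microRNA gene inside the DOWN domain makes. They are written from RefSeq on GRCm38, the assembly that mm10 names, with the seed (bases 2 to 8) in capitals.
mmu-miR-21a-5p: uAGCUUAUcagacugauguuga
mmu-miR-21a-3p: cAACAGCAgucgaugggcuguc
The 5p product comes from chr11:86584120-86584141 and the 3p product from chr11:86584082-86584103, both on the minus strand. The 5p seed is shared with 1 other mature mouse microRNA in the table used, mmu-miR-21c, and no other mature sequence there has the 3p seed.

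The widest DOWN region, at chr9:48720095-48759150, measured 39056 bp, or 17.5 times the DOWN median of 2229 bp. It is the second widest region of any class, after an UP region of 39094 bp at Egfr. The Vmp1-Mir21a domain, at chr11:86577269-86611255, measured 33987 bp, or 15.2 times the DOWN median, and ranks 5 by width among all regions. Between them in rank lies a DOWN region of 37515 bp at Gpam, the mitochondrial enzyme that starts glycerolipid synthesis. Just outside the limit of the first 3 lies a DOWN region of 30378 bp at Myh9, the heavy chain of non-muscle myosin. The Vmp1-Mir21a domain and the Myh9 region thus stand on either side of the limit.

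**Figure D1:**
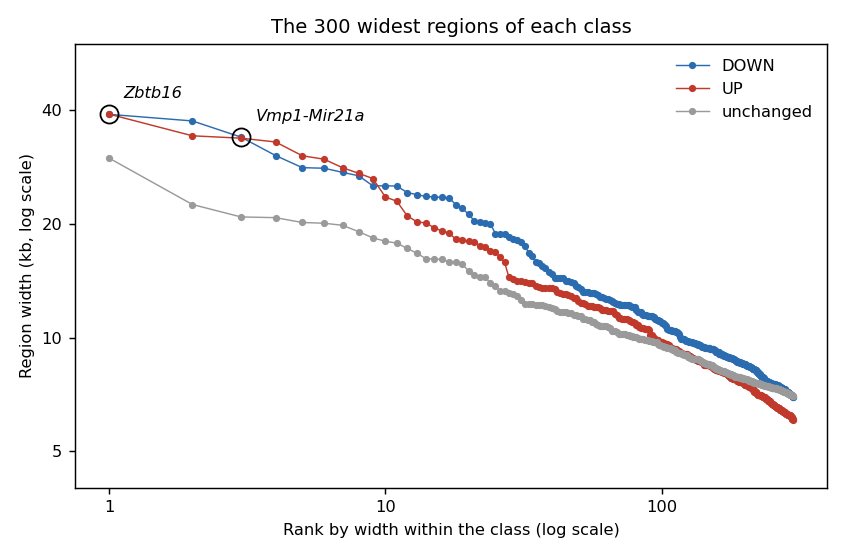
Region width in kb against rank by width for the 300 widest DOWN, UP and unchanged regions, both axes on a log scale, each point 1 region. The circled DOWN regions are those of Zbtb16 (39056 bp) and Vmp1-Mir21a (33987 bp), and UP regions reach the same widths while the widest unchanged region measures 29878 bp.

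Around Zbtb16, every changed region was DOWN. The window of 200 kb on each side held 8 DOWN, 0 UP and 16 unchanged regions. DOWN regions thus made 100% of 8 changed regions (95% Wilson interval from 67.6% to 100%), where 38.0% of all 8884 changed regions are DOWN. Over all regions in the lists, 10.5% are DOWN and 17.1% are UP. The wide domain itself is 1 of the 8 and was fixed by the choice of the gene, and the other 7 were not. Most of these 7 lie in the same gene body, however, some of them only 957 bp or 892 bp apart. They are not independent of the domain or of each other, while the interval treats all 8 as independent. With 100 kb or 500 kb of flank the counts were also 8 DOWN and 0 UP, with 13 and 17 unchanged regions, respectively. The flank of 500 kb thus added hardly any region to the 16 unchanged ones of the main window, and no changed one. The nearest UP region to the domain began 1094 kb away, across sequence with few regions of any class near the gene. Of 11575 protein-coding genes with a region in their body, 9441 had at least 1 UP region within 200 kb, and the others had none. At least 8 DOWN regions lay within 200 kb of 71 of these genes.

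Zbtb16 lies on the minus strand at chr9:48654297-48836222, and distances are given from its most upstream TSS, positive in the direction of transcription. The promoter region, at chr9:48834040-48836977, is DOWN and 2938 bp wide, and it holds both annotated TSSs, those of Zbtb16-201 and Zbtb16-202. From there 4 more DOWN regions follow in intron 2, numbered on Zbtb16-201. They begin 8.35 kb, 12.6 kb, 33.3 kb and 45.5 kb from the TSS and measure 3351 bp, 8965 bp, 11204 bp and 8468 bp, in that order. The wide domain comes next, from 77.1 kb to 116 kb. It covers parts of introns 2 and 3 and exon 3, which is 98 bp long, and it holds no TSS of any GENCODE transcript. Its nearest TSS is that of Zbtb16-201, 76795 bp away. The last 4 regions of the gene body, all beyond the wide domain, are unchanged and measure from 577 bp to 2662 bp. H3K27ac DOWN regions are thus found from the promoter to intron 3, and unchanged ones in the rest of the gene and in the gaps.

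In the body of Zbtb16, 6 DOWN regions cover 73227 bp, or 40.3% of the gene, and 7 unchanged regions cover 6.25%. Among 11575 protein-coding genes with a region in their body, the median number of DOWN regions was 0. Gene length was not taken into account in this or the ranks below, and the 181926 bp of Zbtb16 leave more room for regions than a short gene. By DOWN base pairs in the gene body, Zbtb16 is second to Zmiz1, a transcriptional coregulator with 73723 bp. The third gene is Sorbs2, an adaptor of the cytoskeleton, with 56060 bp. There are 8 genes with 6 or more DOWN regions in their body, and 2 of these, Zbtb16 and Nav2, have no UP region there. The wide domain alone accounts for more than the other 5 DOWN regions of the gene together. The rank by DOWN base pairs thus rests largely on the domain for which the gene was chosen, and the rank without it was not computed.

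**Figure D2:**
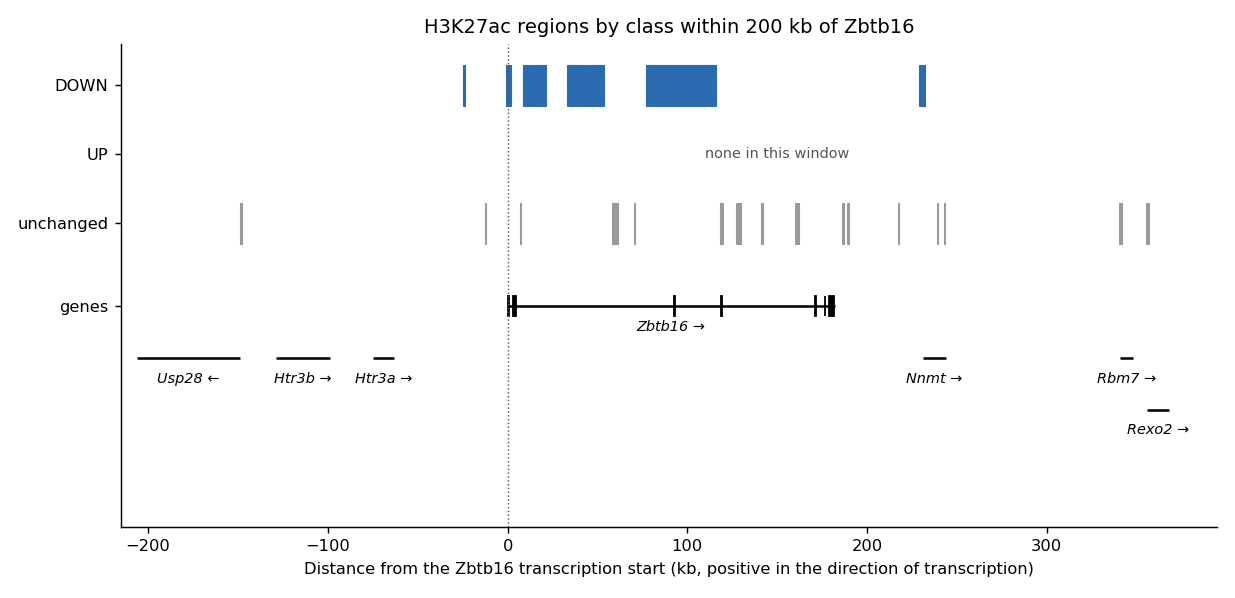
Regions of each class within 200 kb of Zbtb16, as distance in kb from its TSS (dotted line), with named neighbours below as lines, exons of Zbtb16-201 as boxes and arrows for the direction of transcription. The DOWN track runs from an upstream region through the promoter and intron 2 to the wide domain between 77.1 kb and 116 kb, and the UP track is empty.

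Outside the gene, 2 further regions are DOWN. One is 1128 bp wide, at chr9:48859739-48860866, and ends 23.5 kb upstream of the TSS in intergenic sequence. The other is 2602 bp wide, at chr9:48604260-48606861, and holds TSSs of Nnmt, the enzyme that methylates nicotinamide. Nnmt also has TSSs in an unchanged region of 518 bp. TSSs of Rexo2, an oligoribonuclease, Rbm7, an RNA-binding adaptor of the nuclear exosome, and its neighbour Gm5617 lay in unchanged regions, as did TSSs of Usp28, a deubiquitinase. For Rexo2, 7 of 10 transcripts start in its region and for Usp28 4 of 10, and the others start in no region. No TSS of Htr3a or Htr3b, the serotonin receptor channel subunits, lay in any region. The nearest region to Htr3a was 50155 bp away and the nearest to Htr3b 19513 bp.

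The Vmp1-Mir21a window showed the other arrangement, with a wide DOWN domain among UP regions. It held 3 DOWN, 10 UP and 25 unchanged regions, so that DOWN made 23.1% of 13 changed regions (95% Wilson interval from 8.18% to 50.3%), beside 38.0% over all changed regions. Counted in base pairs, the order turns, and DOWN makes 62.9% of the changed sequence, since the domain is 1 of the 3 DOWN regions and by far the widest. The shares of both windows are given as a description with no test, because the choice of the genes fixed 1 DOWN region in each. For Mir21a alone, the 200 kb on each side held 1 DOWN, 8 UP and 20 unchanged regions.

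Vmp1 lies on the minus strand at chr11:86583865-86683836. Its main promoter is in an UP region of 6224 bp, at chr11:86678957-86685180, which holds the TSSs of Vmp1-201 and Vmp1-204 and both TSSs of Ptrh2, a mitochondrial peptidyl-tRNA hydrolase on the other strand. Following the gene, an UP region of 923 bp comes 10.4 kb from the TSS, followed by 5 unchanged regions that measure from 557 bp to 4049 bp. Next is an UP region of 2084 bp at 45.0 kb, followed by 3 unchanged regions, of which the widest measures 9063 bp. The DOWN domain starts 72.6 kb from the TSS and ends at 107 kb, which is 6596 bp past the end of Vmp1. It covers exons 9 to 12 of Vmp1-201, which has 12. The distance from the domain to the nearest UP region is 25.5 kb, and 3 unchanged regions lie between.

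**Figure D3:**
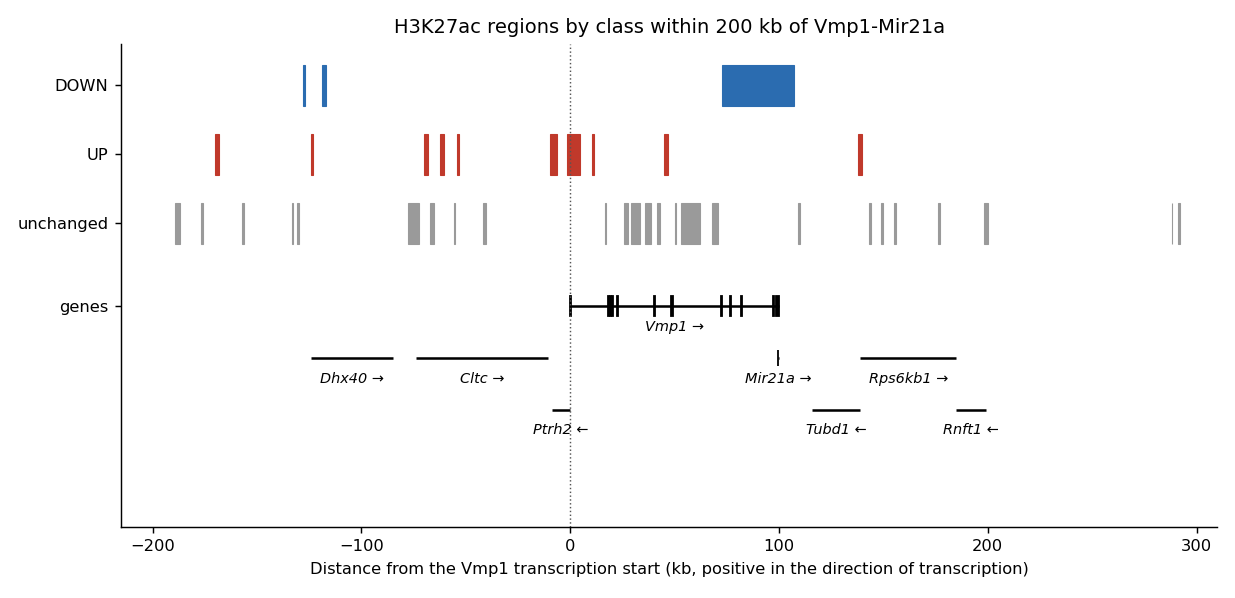
Regions of each class within 200 kb of Vmp1-Mir21a, as distance in kb from the Vmp1 TSS (dotted line), with named neighbours as lines, exons of Vmp1-201 as boxes and Mir21a as a tick. The UP track holds the Vmp1 and Ptrh2 promoter at the dotted line, and the DOWN domain between 72.6 kb and 107 kb covers the end of Vmp1 and Mir21a.

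Mir21a, at chr11:86584067-86584158, lies inside the DOWN domain, 6798 bp from its downstream edge and 27097 bp from its upstream edge. It falls in exon 12 of Vmp1-201, 1152 bp past the end of the coding sequence. Besides Mir21a, 4 short transcripts of Vmp1 that are annotated as processed transcripts start in the domain, at 81.5 kb (Vmp1-208), 81.6 kb (Vmp1-202), 96.8 kb (Vmp1-206) and 97.0 kb (Vmp1-207) from the main TSS. The other 2 transcripts of Vmp1, Vmp1-203 and the protein-coding Vmp1-205, start in no region. Vmp1 is therefore counted in both the UP and the DOWN class. Only 42 of 12261 genes (0.343%) are in both classes. In 29 of the 42, the UP TSS lies upstream of the DOWN one, as in Vmp1, and in 13 the DOWN TSS does. The UP and DOWN TSSs of Vmp1 are 81.5 kb apart at the closest, where the median of the 42 genes was 31.5 kb and 9 genes had a longer distance. Another of the 42 is a neighbour of Vmp1, Dhx40, a putative RNA helicase, whose TSSs 6.66 kb apart lie in an UP region of 964 bp and a DOWN region of 1873 bp. The third DOWN region of the window, 1208 bp wide, is intergenic and 2940 bp from a Dhx40 TSS.

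The other UP regions of the window are narrower than that of the Vmp1 promoter. The UP region of 1457 bp at chr11:86544028-86545484 holds TSSs of both Rps6kb1, the S6 kinase that acts below mTORC1, and Tubd1, delta tubulin. An UP region of 3070 bp overlaps Ptrh2, 6220 bp from its TSS. In the body of Cltc, the clathrin heavy chain, 3 UP regions measure 784 bp, 2027 bp and 1940 bp, while the region at the Cltc TSSs is unchanged and 5416 bp wide. The TSSs of Rnft1, a ring finger protein, lay in an unchanged region of 2006 bp. The last UP region, 2353 bp wide and 168 kb upstream of Vmp1, is 43782 bp from the nearest TSS. Of 11575 protein-coding genes with a region in their body, 54 had at least 10 UP regions within 200 kb, and the median was 2. The 25 unchanged regions of the window were also many, a number reached by 76 genes where the median was 9. The window is thus rich in unchanged as well as UP regions. Vmp1 had 3 UP regions in its body, a number reached by 218 genes, with no allowance for gene length. Windows of neighbouring genes overlap, so these genes are not independent of each other.

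**Figure D4:**
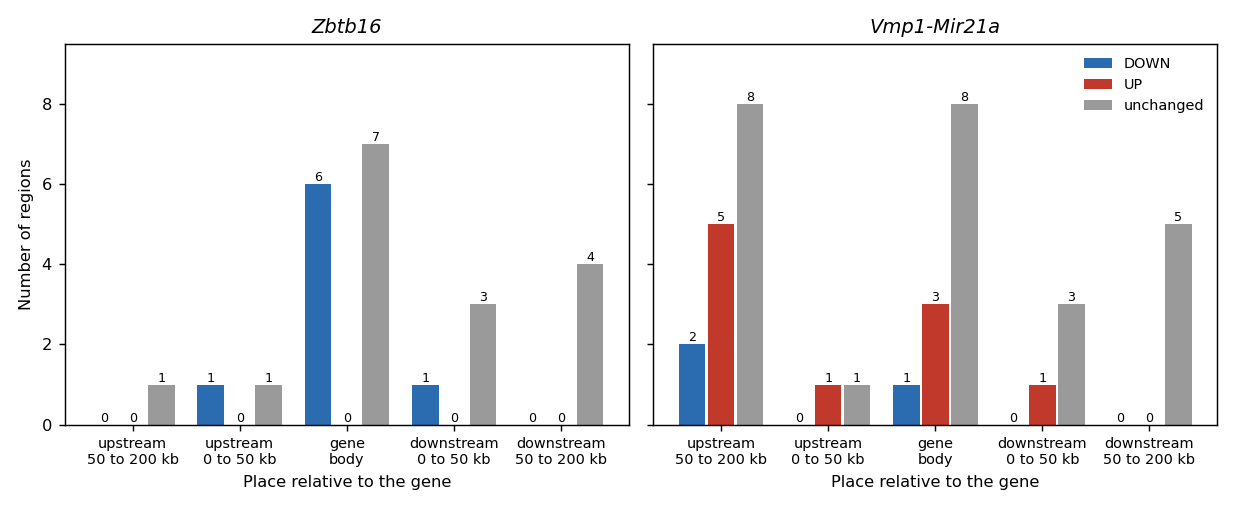
Number of DOWN, UP and unchanged regions by place relative to Zbtb16 (left) and Vmp1-Mir21a (right), each region counted once by its edge nearest to the gene, with any region that reaches the gene counted in the gene body. DOWN regions of Zbtb16 gather in the gene body (6 of 8), while that of Vmp1 holds 1 DOWN and 3 UP regions.

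Among the 10 widest DOWN regions, the surroundings differed. Within 200 kb of its edges, the Zbtb16 domain had 7 other DOWN and 0 UP regions. The Gpam region had 1 other DOWN and 2 UP regions, and the Myh9 region had 4 and 2. The Vmp1-Mir21a domain had 2 other DOWN and 10 UP regions, more UP regions than any of the other 9. It also had the most unchanged regions of the 10, with 21. Besides Zbtb16, only the region at Lpin2, a phosphatidate phosphatase, had no UP region in this distance. Of 24 DOWN regions of 20 kb or more, 3 held no TSS, and the Zbtb16 domain is one of them. The others are a region of 26848 bp at Bcl2l1 and one of 25251 bp at Zmiz1. For UP regions of this width the count without a TSS was 3 of 14, so the absence of a TSS is not particular to the DOWN class.

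Regions were joined across gaps of up to 12.5 kb to see how far each cluster extends. The Zbtb16 cluster runs over 166 kb and holds 14 regions, 7 DOWN and 7 unchanged. DOWN makes 88.2% of its covered base pairs. Of 17523 clusters in the lists, 6562 hold 2 or more regions, and the rest are single regions. No cluster but that of Zbtb16 has as many as 7 DOWN regions. By DOWN base pairs the Zbtb16 cluster ranks second, a rank that includes the wide domain for which the gene was chosen. The Vmp1-Mir21a cluster runs over 120 kb and also holds 14 regions, of which 1 is DOWN, 4 are UP and 9 are unchanged, and DOWN makes 48.3% of its covered base pairs. Both classes of change are found together in 439 clusters, and 8 clusters have 1 DOWN region with at least 4 UP regions. The Zbtb16 domain is separated from unchanged neighbours by 2123 bp and 6236 bp, and the Vmp1-Mir21a domain by 2392 bp and 2009 bp. With gaps of up to 5000 bp, the clusters shrink to 2 and 3 regions, without any other changed region.

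The domains differ from each other in base composition. The GC content was 48.2% in the Zbtb16 domain and 42.4% in the Vmp1-Mir21a domain, and the DOWN median was 46.6%, with quartiles of 43.3% and 50.4%. The Vmp1-Mir21a domain thus falls below the lower quartile. Soft-masked repeats made 17.0% of the Zbtb16 domain and 30.6% of the Vmp1-Mir21a domain, where the DOWN median was 16.7%. The ratio of observed to expected CpG was low in both, at 0.216 and 0.227, beside a DOWN median of 0.203. Across bins of 500 bp, the GC content ranged from 40.2% to 55.0% in the Zbtb16 domain and from 30.2% to 56.2% in the Vmp1-Mir21a domain. The DOWN region at the Zbtb16 TSSs had a ratio of 0.655 and a GC content of 60.2%. The UP region at the Vmp1 and Ptrh2 TSSs had a ratio of 0.412 and a GC content of 43.1%, close to the GC content of the Vmp1-Mir21a domain.

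The 148 bases between the starts of Vmp1 and Ptrh2 are shown because the UP region holds this shared promoter, which can be read beside the CpG-poor sequence of the DOWN domains. They lie at chr11:86683837-86683984, between the GENCODE starts of the genes. The bases are from the RefSeq sequence of GRCm38 and are written on the minus strand, toward Vmp1, with each CpG in capitals.
Vmp1-Ptrh2: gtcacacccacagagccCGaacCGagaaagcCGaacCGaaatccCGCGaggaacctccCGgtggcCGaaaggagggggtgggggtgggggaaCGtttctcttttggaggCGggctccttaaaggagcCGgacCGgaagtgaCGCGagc
This stretch holds 14 CpG, with a ratio of observed to expected CpG of 0.942 and a GC content of 64.2%. None of the 9 motifs described next has a match in the 300 bases of the RefSeq promoter of Vmp1 that contain it. The share of all 32851 promoters with a match is 10.8% for the most frequent of the motifs and 0.475% for the rarest.

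Consensus motifs of 9 factor families were counted on both strands of all regions, each motif by itself and palindromes once. The letters were CAAAGTCCA (HNF4), TGTTTAC (FOXA), TTGCNNAA (CEBP), TTATGTAA (D-box, the element of PAR-bZIP factors), TGANTCA (AP-1), ACANNNTGT (GRE, the core of the glucocorticoid response element), TTCNNNGAA (STAT), TGATGCAA (ATF4/CHOP) and TGACGTGG (UPRE, a stress element). The Zbtb16 domain had 27 GRE matches, or 0.691 per kb, beside 0.355 per kb over all DOWN regions and 0.342 per kb over UP regions. Of the 292 regions of 10 kb or more, 11 were denser in GRE matches. The Vmp1-Mir21a domain had 9, or 0.265 per kb, which is below the DOWN value. There the STAT motif stood higher, with 21 matches or 0.618 per kb against 0.334 per kb in all DOWN regions, and 25 of the 292 regions were denser. The Zbtb16 domain had 10 STAT matches, or 0.256 per kb. Repeats held 4 of the 27 GRE matches and 4 of the 21 STAT matches.

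The GRE matches of the Zbtb16 domain were not spread evenly. Between 95.3 kb and 99.7 kb from the TSS, in intron 3, 14 of the 27 lay within a stretch of 5 kb. Over the 292 regions of 10 kb or more, the highest count in any 5 kb had a median of 3, and none but the Zbtb16 domain reached 14. This stretch was singled out after its matches were seen, and a wider region offers more stretches to choose from. The STAT matches of the Vmp1-Mir21a domain reached 6 in 5 kb, a count reached by 17 of the 292 regions.

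D-box matches numbered 4 in each domain, or 0.102 per kb for Zbtb16 and 0.118 per kb for Vmp1-Mir21a, beside 0.0407 per kb over DOWN regions. With 4 matches each, counting error is wide. FOXA had 6 matches in each domain. CEBP had 16 in the Zbtb16 domain and 15 in the Vmp1-Mir21a domain, and AP-1 had 11 and 13. The AP-1 density was 0.282 per kb and 0.382 per kb, beside 0.373 per kb over DOWN and 0.586 per kb over UP regions. No match to HNF4, ATF4/CHOP or UPRE was found in either domain. At least 1 match is present in 27.1%, 29.8% and 17.5%, respectively, of the regions of 10 kb or more. A match is a run of letters, and factor binding was not measured here.

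**Figure D5:**
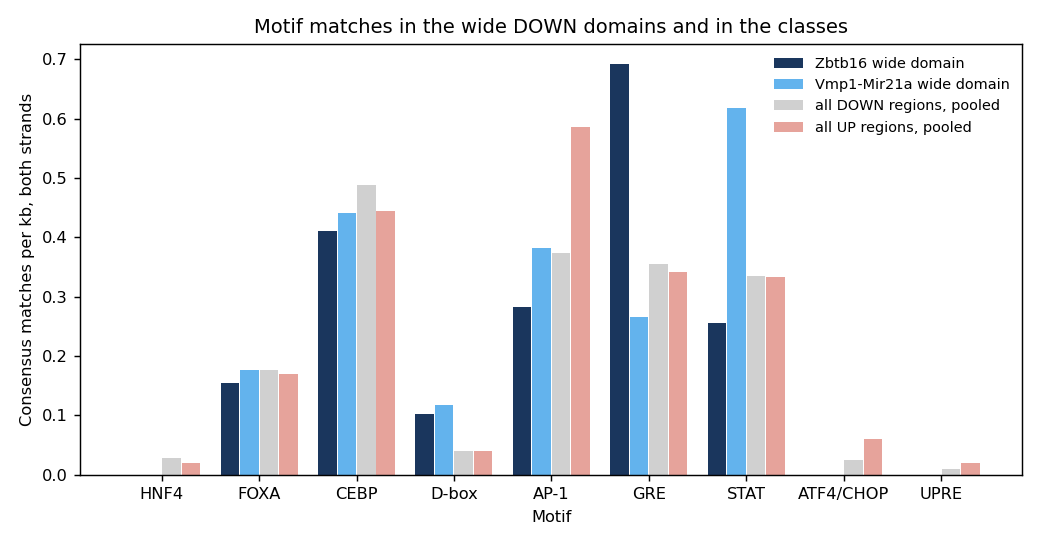
Matches per kb (both strands) to 9 consensus motifs in the Zbtb16 wide domain, in the Vmp1-Mir21a wide domain, and pooled over all DOWN and all UP regions. GRE stands highest in the Zbtb16 domain (0.691 per kb) and STAT in the Vmp1-Mir21a domain (0.618 per kb), while HNF4, ATF4/CHOP and UPRE have no match in either.

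No 200 bases of the Zbtb16 domain hold more than 3 matches of any of the motifs, a count reached in 3 separate stretches. One of these is shown, as an example of this sequence, in the direction of the gene and with matches in capitals (mm10, minus strand).
Zbtb16 domain: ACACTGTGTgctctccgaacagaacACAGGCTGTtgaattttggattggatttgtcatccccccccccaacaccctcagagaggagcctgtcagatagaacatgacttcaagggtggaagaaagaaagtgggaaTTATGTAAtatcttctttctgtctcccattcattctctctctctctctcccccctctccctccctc
This window lies at chr9:48736319-48736518, in intron 3 of Zbtb16, and holds 2 GRE matches and 1 D-box match.

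Other genes of the members' families were read from lists by the class of the region at their TSSs, where 8.91% of the 12261 genes with a TSS in a region count as DOWN and 21.4% as UP. Of 36 BTB-zinc finger genes with a TSS in a region, 4 (11.1%) were at a DOWN region and 7 (19.4%) at an UP region, both near these backgrounds. With up to 10 kb between TSS and region, 7 of 41 (17.1%) were at a DOWN region, beside 14.1% of 21015 genes. Besides Zbtb16, with 2938 bp, the genes at DOWN regions were Zbtb24 (2317 bp), Zbtb14 (1536 bp) and Zbtb4 (967 bp). The widest UP regions of the list were at Zbtb2 (6560 bp) and Zbtb20 (5333 bp), the latter a repressor abundant in hepatocytes that also has a TSS in an unchanged region of 12587 bp. Bcl6, another repressor of the family, had an unchanged region of 19086 bp. Of this list, only the body of Zbtb16 holds one of the 10 widest DOWN regions, and Zbtb16 was chosen for that region.

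Of 18 genes listed as responsive to glucocorticoids, 4 were at a DOWN region and 4 at an UP region (22.2% each). Those at DOWN regions were Zbtb16, Fkbp5, a chaperone of the steroid receptors with 2279 bp, Cebpd, a transcription factor of the acute phase with 4685 bp, and Angptl4, an inhibitor of lipoprotein lipase with 12320 bp. Those at UP regions were Dusp1, a phosphatase of MAP kinases with 14108 bp, Tsc22d3 with 9225 bp, Klf9 with 5984 bp, and Tdo2, the first enzyme of tryptophan breakdown, with 4329 bp. Fkbp5 and Dusp1 each also had a TSS in an unchanged region, of 1293 bp and 4171 bp. Members of the list were thus found in both classes, and Tat, Pck1 and G6pc were at unchanged regions.

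Of 20 genes of autophagosome formation with a TSS in a region, Vmp1 was the only one at a DOWN region, and it was also at an UP region. Its DOWN region is the wide domain for which it was chosen, and of the Vmp1 transcripts only short processed ones start there. The other 3 at UP regions were Wipi1 and Wdr45, which bind phosphoinositides, with 1567 bp and 2233 bp, and Atg13, a subunit of the ULK1 complex, with 2943 bp. Wdr45 also had a TSS in an unchanged region of 1572 bp. The remaining 16 were at unchanged regions only, among them Tmem41b, the scramblase that acts with Vmp1, at 2125 bp. The annotated TSS of a microRNA gene is the start of its hairpin, not of the longer primary transcript. Of 9 listed microRNA genes with a TSS in a region, 4 (44.4%) were at a DOWN region. These were Mir21a, Mir193a with 10045 bp, and Mir192 and Mir194-2, which share a single region of 3257 bp. Mir148a and Mir30a were at UP regions of 3107 bp and 4795 bp. With 9 genes, 1 gene more or less moves this share by over 10 percentage points. The share includes Mir21a, which was chosen for its DOWN region, so it is not set against the share over all genes.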

How the data were processed

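H3K27ac ChIP-seq libraries of MPH (3 per treatment, with 1 input each) were aligned to mm10 with Bowtie by the authors, who called broad peaks with MACS2 on pooled libraries and classed the peaks with csaw (bins of 150 bp, reads extended to 200 bp, loess normalization, a test paired by mouse). DOWN and UP regions passed an FDR of 0.05, with UP bins no more than 0.5 times the DOWN bins for DOWN and at least 2 times for UP. Mixed regions were dropped by the authors. The deposited lists hold start and end positions in base pairs, with no counts, so no test was run here. A class describes a whole region, not each base of it. Regions were mapped to GENCODE M21, a later release than the study names, with 200 kb flanks and 12.5 kb stitching. All 26 RefSeq promoter and microRNA sequences checked matched the genome. Motifs, CpG ratios and lists were counted with Python 3.11.15, and functions were tested on simulated data. The members, gene lists and motifs were chosen with earlier results of these data known. Genes are named if they are members, neighbours in the windows, holders of the widest regions, or listed genes at changed regions. Others, such as Sorbs2, Nav2, Bcl6, Tat, Pck1, G6pc and Tmem41b, were chosen after their values were seen. The RefSeq table of promoters was not matched for Zbtb16. Signal tracks were not used here. An example sequence from the Vmp1-Mir21a domain is not reported here.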

Additional observations from a re-analysis of the deposited data

How the results depend on the processing

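The DOWN share around Zbtb16 was 100% under all 6 alternatives tried. Since the window of 200 kb held no UP region, only the flank of 500 kb could have given another value. That flank reached no further changed region and held 17 unchanged regions in place of 16, so it hardly tested the share. Around Vmp1-Mir21a it stayed between 11.1% and 30.0% under 5 alternatives and turned to 62.9% when base pairs were counted. With gaps of up to 5000 bp, the domains joined 2 regions at Zbtb16 and 3 at Vmp1-Mir21a, in place of 14 each. Genes with a TSS in the Vmp1-Mir21a domain fell from 2 to 1 with protein-coding genes only, which leaves out Mir21a, and to 1 with basic transcripts. The DOWN call of Vmp1 rests on processed transcripts alone. The GC content was 49.5% and 41.7% in the central 10 kb of the Zbtb16 and Vmp1-Mir21a domains, and 48.7% and 43.3% outside repeats. Allowing 10 kb between TSS and region gave 7 BTB-zinc finger genes in place of 4 and 4 autophagosome genes in place of 1 at a DOWN region (7 of 41 and 4 of 20 near any region), beside 14.1% of all genes under the same rule. Of 36 recomputed motif densities, 7 left the interval of counting error. Many of the 36 could not move. AP-1, GRE and STAT are palindromes with the same count on 1 strand, and HNF4, ATF4/CHOP and UPRE had no match to lose. For the other motifs, 1 strand holds only part of the matches. The GRE density rose to 1.5 per kb in the central 10 kb of the Zbtb16 domain, and 5 of the 7 came from searching 1 strand. No paired analysis was possible because the lists hold no values per library. Likewise, no library could be left out. Widths and classes depend on peak calling and on pooled libraries, which could not be repeated here.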
